A study of Mus musculus with 244 samples.

Results

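Connexin and cadherin genes of the follicle were followed through single oocytes and single somatic cells of the mouse ovary, to ask which cell type carried the transcript of which junction gene, and at which follicle stage. The 6 genes were chosen by name, not by any measured value, from the 25122 genes of the count table. They are the connexins *Gja1*, *Gja4* and *Gjc1* and the classical cadherins *Cdh1* (E-cadherin), *Cdh2* (N-cadherin) and *Cdh3* (P-cadherin). Follicles came from CD-1 mice at postnatal day 6, and cells were released with Accutase, an enzyme mix that cuts junction proteins, for 5 min in primordial and transitioning follicles and for 10 min in primary and secondary ones. There were 59 oocytes, of which 13 came from primordial follicles, 19 from transitioning, 20 from primary and 7 from secondary ones. The somatic cells, which are the pre-granulosa or granulosa cells around the oocyte, numbered 40, 47, 56 and 42 in that order of stages. Each cell was a SMART-Seq2 library on 1 of 6 plates, and the labels name no animal for any cell, so each cell type at a stage counted as 1 sample and no p-value was computed. Cells were gathered over several collections that the labels do not tie to single cells. The spread given is that between cells of 1 plate or between plates, and intervals cover counting error only, since PCR copies of a cDNA are not separate molecules.

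Gap junctions are channels that neighbouring cells build together, each giving a ring of connexin proteins, and they pass ions, nucleotides and other small metabolites. In the mouse follicle the connexin from *Gja4* is known as the channel protein of the oocyte surface, the one from *Gja1* joins granulosa cells to each other, and *Gjc1* encodes a connexin found in many tissues. Classical cadherins are calcium-dependent adhesion proteins that bind across the cell border and are tied to actin by catenins. E-cadherin is typical of epithelia and germ cells, N-cadherin of mesenchymal cells, neurons and granulosa cells, and P-cadherin of basal epithelial layers and placenta.

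The table did not list every gene for every plate, and a missing entry was not taken as a 0. *Gja4* and *Cdh3* were listed on all 6 plates (all cells), *Gja1* on plates 1 and 2 (21 oocytes and 69 somatic cells), *Gjc1* and *Cdh2* on plates 4 and 5 (25 oocytes and 82 somatic cells), and *Cdh1* on plate 5 alone (10 oocytes and 66 somatic cells). *Gja1* and *Cdh2* therefore never shared a plate, and the stages of *Gja1* and those of *Cdh2* were seen in different libraries. Plate 3 held no oocyte, so 5 plates gave a comparison of the cell types. Only on plate 4 were all cells of 1 stage, transitioning. Plate 2 set 7 primordial and 1 primary oocyte against 32 primary somatic cells. Plate 6 set 3 transitioning, 8 primary and 2 secondary oocytes against 1 transitioning and 11 secondary somatic cells. Plates 1 and 5 held different mixes of stages in the 2 types, so outside plate 4 a ratio holds cell type and stage together. Levels are given as CPM, the counts of a gene per 1000000 counts of all genes listed on that plate, and a group's level is the CPM of the summed counts of its cells.

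Totals ran between 5440 and 801258 counts in oocytes (median 96024) and between 5150 and 409310 in somatic cells (median 72279). The plates differed in depth, with median totals of 63971 to 504558 counts in oocytes and of 39964 to 181855 in somatic cells. The cell types were described with 2 marker lists, the same lists by which the study had scored and removed cells. Oocyte markers such as *Gdf9* and *Figla* summed to plate medians of 0.478% to 5.89% of the counts in oocytes, against 0% to 0.253% in somatic cells. Granulosa markers such as *Foxl2*, *Amh* and *Inha* summed to plate medians of 0.00350% to 0.0119% in oocytes, against 0.675% to 3.47% in somatic cells, and 2 somatic cells of plate 2 had no granulosa marker read. A plate lists between 6 and 10 of the 19 oocyte markers and between 12 and 19 of the 21 granulosa markers. These shares therefore compare cells within a plate, not plates. The study had already removed oocytes with a high somatic score and somatic cells with a high oocyte score by these lists. Low shares of the other type's markers were therefore partly set in advance, and they are no independent check of the labels. None of the 6 genes was in the lists. Time codes or stages in the cell metadata went against the titles in 5 cells, all on plate 1, and the ratios of plate 1 that they move are given without them too.

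On GRCm38 the genes lie at chr10:56377330-56402513 (*Gja1*, plus strand, 3 exons in its longest transcript), chr4:127311421-127314039 (*Gja4*, minus strand, 2 exons), chr11:102799579-102819700 (*Gjc1*, minus strand, 2 exons), chr8:106603351-106670246 (*Cdh1*, plus strand, 16 exons), and chr8:106510891-106557297 (*Cdh3*, plus strand, 16 exons). *Cdh3* and *Cdh1* lie 46.1 kb apart on the same strand, with 1 coding gene between them. The promoters of *Gja1* and *Gja4*, the 2 of the 6 genes matched in the RefSeq table, are shown because these connexins had opposite patterns. Each runs for 300 bases, 250 before the RefSeq start of the gene to 50 after it, on the gene's own strand (GRCm38.p6, chr10:56377050-56377349 and chr4:127313990-127314289). RefSeq starts *Gja1* at base 56377300, before the start given above, and *Gja4* at 127314039, which is the same base. Capitals mark matches to the E-box CANNTG and the AP-1 motif TGANTCA, searched on both strands.
Gja1: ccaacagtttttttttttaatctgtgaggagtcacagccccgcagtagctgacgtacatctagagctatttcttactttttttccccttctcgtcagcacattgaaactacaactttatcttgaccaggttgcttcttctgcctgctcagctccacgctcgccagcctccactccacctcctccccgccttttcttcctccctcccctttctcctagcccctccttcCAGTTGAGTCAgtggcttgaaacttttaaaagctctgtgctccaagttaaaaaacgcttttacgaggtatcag
Gja4: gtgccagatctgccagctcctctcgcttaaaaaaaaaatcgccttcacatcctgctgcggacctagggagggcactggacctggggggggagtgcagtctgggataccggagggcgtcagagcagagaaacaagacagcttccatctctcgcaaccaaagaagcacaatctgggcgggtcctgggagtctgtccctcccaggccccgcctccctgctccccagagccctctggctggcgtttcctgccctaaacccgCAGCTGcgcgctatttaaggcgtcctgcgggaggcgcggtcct
In *Gja1* an E-box (CAGTTG) starts 23 bases before the RefSeq start and overlaps the AP-1 match (TGAGTCA) that starts 19 bases before it. In *Gja4* the E-box (CAGCTG) starts at base 8 of the gene, and no AP-1 match is in the window. An E-box is in 72.3% and an AP-1 match in 7.81% of the 32851 promoters of the table, so the letters describe these windows and mark no site.

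*Gja4* was the gene most evenly seen in oocytes. It had reads in 59 of 59 oocytes and in 41 somatic cells (22.2%). The lowest, median and highest oocyte had 22.1, 599 and 1103 CPM on plate 1, 943, 2033 and 8774 CPM on plate 2, 2010, 3307 and 5834 CPM on plate 4, 1325, 2635 and 3918 CPM on plate 5, and 2177, 3290 and 4267 CPM on plate 6. In somatic cells the median was 0 CPM on plates 1 to 5 and 66.9 CPM on plate 6, and the highest cells had 76.3 CPM on plate 1, 580 on plate 2, 1076 on plate 3, 448 on plate 4, 929 on plate 5 and 1046 on plate 6. Every oocyte lay above every somatic cell on plates 2, 4, 5 and 6, and on plate 1 only the 1 oocyte at 22.1 CPM lay among the somatic cells. Such a gap was uncommon, since the share of all tested genes with every oocyte above every somatic cell was 0.200% on plate 1, 2.79% on plate 2, 2.03% on plate 4, 0.233% on plate 5 and 3.65% on plate 6. Every oocyte lay below every somatic cell for 0.172%, 1.16% and 1.26% of genes on plates 2, 4 and 6 and for 0.00% on plates 1 and 5, and for none of the 6 genes.

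From the summed counts, *Gja4* stood at 696 CPM in oocytes and 5.58 CPM in somatic cells of plate 1, a log2 ratio of 6.96 (95% interval 6.44 to 7.53). The log2 ratio was 7.24 on plate 2 (3717 against 24.6 CPM), 7.52 on plate 4 (3282 against 17.9 CPM), 5.57 on plate 5 (2604 against 54.8 CPM) and 4.18 on plate 6 (3435 against 189.03 CPM). The median over the 5 plates was 6.96 (SD 1.40), and *Gja4* ranked 89 from the top among the 7485 genes tested on plate 1 and 69 among the 4931 of plate 4. Most somatic counts of plates 1 and 2 came from 1 cell, and without it the log2 ratio was 11.76 (9.28 to 17.07) from 1 somatic count and 12.02 (10.47 to 14.30) from 3. On plate 4 all somatic counts came from 1 cell, without which the ratio was at least 11.66. Without the cells with conflicting labels the ratio of plate 1 was 6.82.

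*Cdh1* was read in all 10 oocytes of plate 5, the only plate that lists it, and in 7 of 66 somatic cells. The primordial oocyte had 306 CPM, the 4 primary oocytes had 818, 926, 1066 and 1204 CPM, and the 5 secondary oocytes had 433, 449, 513, 583 and 818 CPM. The 7 somatic cells with reads had 24.6, 29.7, 148.4, 185.8, 226.9, 262 and 880 CPM, and the other 59 had none. The groups overlapped through that 1 primordial somatic cell at 880 CPM, which had 14 counts of a total of 15909. From summed counts the level was 707 CPM in oocytes and 16.1 CPM in somatic cells, a log2 ratio of 5.45 (5.04 to 5.89), rank 130 from the top of 6424 genes.

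*Cdh3* was read in 53 of 59 oocytes and in 39 somatic cells (21.1%), with a wide spread between plates. On plate 4 the lowest, median and highest oocyte had 100, 696 and 2274 CPM, and the only somatic cell with a read had 4.61 CPM from 1 count. On plate 6 oocytes had 1849, 3630 and 4756 CPM, and the highest somatic cell 1794 CPM. On these 2 plates no somatic cell reached the lowest oocyte. On plate 5 oocytes had 0, 3322 and 7177 CPM, and the highest somatic cell 2092 CPM. Levels were far lower on plate 1, where oocytes had 0, 7.37 and 258 CPM and somatic cells up to 256 CPM, and on plate 2, where oocytes had 42.9, 221.6 and 321 CPM and somatic cells up to 1088 CPM. The few somatic cells with reads were often high, so the oocytes and somatic cells of plates 1, 2 and 5 overlapped.

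The log2 ratio of *Cdh3* was 11.20 on plate 4 (8.72 to 16.50, resting on 1 somatic count), 4.73 on plate 5 (3137 against 117.8 CPM), 4.26 on plate 6 (3526 against 184.6 CPM), 2.01 on plate 1 (81.6 against 20.3 CPM) and 0.95 on plate 2 (221.2 against 114.5 CPM). It ranked 3 from the top of 4931 genes on plate 4 and 1225 of 5225 on plate 2. The rank on plate 4 rests on that 1 count, since genes with no somatic count were set at 3. Without the cell that held it, the ratio of plate 4 was at least 9.51. On plate 1, 1 primary oocyte held 73.7% of the oocyte counts, and without it the ratio was 0.47, under the log2 ratio of 1 used as the limit. It was 3.77 without 1 transitioning somatic cell and 2.73 without the cells with conflicting labels. On plate 6 it was 5.84 without 1 secondary somatic cell. On plate 2 the ratio crossed that limit when any of 8 single cells was left out (highest 1.27) and was 2.14 with TMM factors, so no call holds for *Cdh3* there. Plates 1 and 2 held all but 1 of the primordial oocytes, so plate and stage cannot be told apart in that difference.

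**Figure D1:**
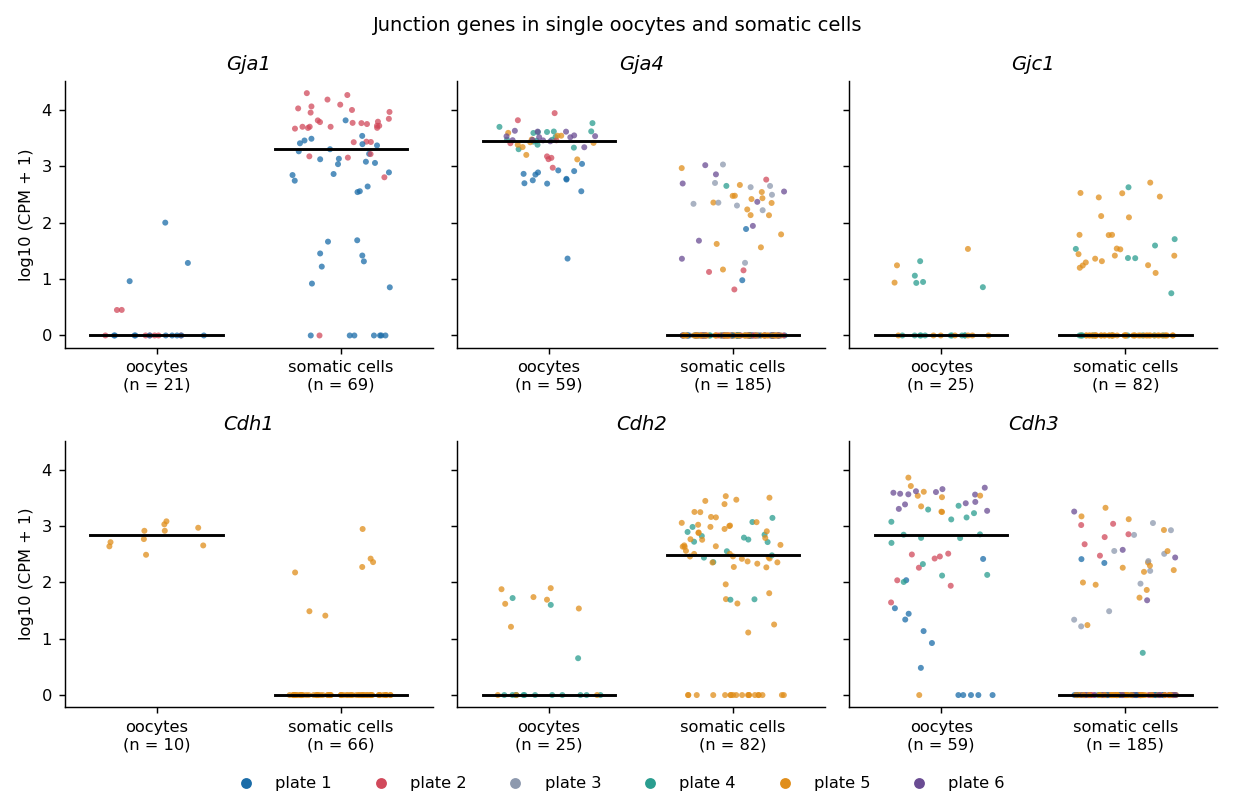
Each point is 1 cell and gives log10(CPM + 1) of 1 of the 6 genes, with oocytes left of somatic cells. Colours mark the plates that list the gene, and the bar is the median of a cell type over all of them. *Gja4* points of oocytes sit at 943 to 8774 CPM on plate 2, where no somatic cell exceeds 580 CPM. *Gja1* oocyte points of that plate lie near 0. Its somatic cells there have a median of 5430 CPM, while the somatic bar, over both plates, is at 2008 CPM.

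*Gja1*, which encodes the main connexin between granulosa cells, showed the opposite pattern. It had reads in 5 of 21 oocytes and in 61 of 69 somatic cells. On plate 2, 2 of 8 oocytes had 1 count each, and the 32 somatic cells had 0, 5430 and 19838 CPM as lowest, median and highest, with a read in 31. From summed counts the level was 0.57 CPM in these oocytes, 7 of them primordial, and 5765 CPM in the somatic cells, all primary. The log2 ratio was -13.30 (-16.35 to -11.45), which holds type and stage together. It ranked 2 from the bottom of 5225 genes, on 2 oocyte counts, where genes with no oocyte count were set at 3. On plate 1 the level was 19.7 CPM in oocytes and 1610 CPM in somatic cells (log2 ratio -6.35, -6.72 to -6.01). The groups overlapped on both plates, since 7 of 37 somatic cells of plate 1 and 1 of 32 of plate 2 had no read.

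The 68 oocyte counts of *Gja1* on plate 1 all came from 3 oocytes. These had 4, 9 and 55 counts (8.18, 18.3 and 99.3 CPM) of totals of 488778, 491056 and 554041. They are primordial by title, but their metadata carry the time code that secondary cells carry elsewhere in the table. The other 10 oocytes of the plate had no read, among them the deepest one with 801258 counts. Without the 3 oocytes the log2 ratio of *Gja1* was -10.04 or lower.

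*Cdh2*, at chr18:16588877-16809246 on the minus strand with 16 exons, was also mostly a somatic gene, read in 10 of 25 oocytes and in 63 of 82 somatic cells. On plate 4, 3 of 15 transitioning oocytes and 16 of 16 transitioning somatic cells had reads, and the somatic cells had 48.1, 547 and 1385 CPM as lowest, median and highest. The summed level was 9.14 CPM in oocytes and 581 CPM in somatic cells (log2 ratio -5.99, -6.56 to -5.47). On plate 5 it was 33.7 CPM in oocytes and 481 CPM in somatic cells (log2 ratio -3.83, -4.50 to -3.24), where 7 of 10 oocytes and 47 of 66 somatic cells had reads, the oocytes up to 77.7 CPM. On plate 4, 1 oocyte held most of the 30 oocyte counts, and without it the ratio was -8.34.

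*Gjc1* was low in both cell types. On plate 4 it had 9 counts in 15 oocytes (2.74 CPM, 5 cells with a read) and 93 in 16 somatic cells (30.2 CPM, 7 cells with a read), a log2 ratio of -3.46 (-4.63 to -2.47). On plate 5 it had 4 counts in 10 oocytes (5.87 CPM, 3 cells) and 32.6 CPM in 66 somatic cells (22 with a read), a ratio of -2.47 (-4.37 to -1.07). Over both plates 32% of oocytes and 35.4% of somatic cells had a read, and with every cell thinned to 12000 counts these were 4.17% and 16.05%. No thinned oocyte of plate 4 had a read, so the thinned log2 ratio there is only bounded, at -0.54 or lower. Without 1 somatic cell the ratio of plate 4 was -2.34, and without 1 oocyte that of plate 5 was -3.34.

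Counted together, with a log2 ratio of 1 and a level of at least 5 CPM as the limits, 2 of the 3 genes listed on plate 1 were higher and 1 was lower in oocytes, where 26.9% of all tested genes were higher and 43.2% lower (70.1% together). On plate 2, 1 gene was higher, 1 lower and 1 within the limits (23.2% and 60.9% of all genes, 84.1% together). On plate 4, 2 were higher and 2 lower (26.9% and 54.2%, 81.2% together). On plate 5, 3 were higher and 2 lower (21.6% and 47.8%, 69.4% together), and on plate 6 both listed genes were higher (22% and 51.9%, 73.9% together). Since most genes passed the limit in 1 direction or the other, the number of these genes past it is not in itself a result, and the sizes and the ranks given for each gene carry the description. The median of all tested genes was -0.56, -2.36, -1.42, -0.90 and -1.18 on plates 1, 2, 4, 5 and 6. TMM scaling moved every ratio of a plate by 0.14 to 1.19 on the log2 scale, and changed the side of the limit for *Cdh3* on plate 2 only.

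**Figure D2:**
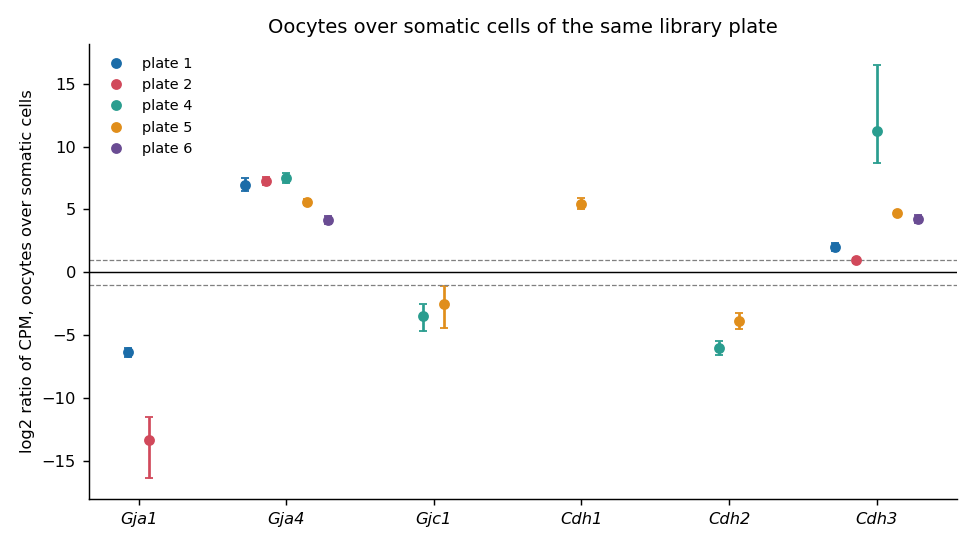
Log2 ratio of oocytes over somatic cells for each gene on each plate that lists it, from summed counts, with 95% counting intervals and dashed lines at -1 and 1. *Gja4* and *Cdh1* points lie between 4.18 and 7.52, *Gja1*, *Cdh2* and *Gjc1* points lie between -13.30 and -2.47, and *Cdh3* runs between 0.95 and 11.20.

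Levels of different genes were set beside each other per kilobase of exon. In the oocytes of plate 5 the order was *Gja4* (1545 CPM per kb), *Cdh3* (715), *Cdh1* (154.6), *Cdh2* (4.18) and *Gjc1* (1.17), where only the intervals of the last pair overlap. In the somatic cells of that plate the order was *Cdh2* (59.6 CPM per kb), *Gja4* (32.5), *Cdh3* (26.9), *Gjc1* (6.51) and *Cdh1* (3.53), where *Gja4* and *Cdh3* overlap. With all stages of plate 5 pooled, the leading cadherin per kb was therefore *Cdh3* in oocytes and *Cdh2* in somatic cells. The same genes led at the primary and at the secondary stage, but not at the primordial one. The 21 primordial somatic cells had 34.1 CPM per kb of *Cdh3* (7 cells with a read) and 14.02 of *Cdh2* (12 cells). The only primordial oocyte had 306 CPM of *Cdh1* and no read of *Cdh3*. On plates 1 and 2 *Gja4* led in oocytes (413 and 2206 CPM per kb, against 1.93 and 0.06 for *Gja1*), and *Gja1* led in somatic cells (157.01 and 562, against 3.31 and 14.6 for *Gja4*). The length of the longest transcript in place of all exons gave the same order on each plate.

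Some pairs of these genes shared plates and were read together in single cells. All 8 oocytes of plate 2, all 15 of plate 4 and all 13 of plate 6 had reads of both *Gja4* and *Cdh3*, as had 8 of 13 on plate 1 and 9 of 10 on plate 5. *Cdh2* and *Gjc1* were both read in 7 of 16 somatic cells of plate 4 and in 16 of 66 of plate 5, and *Cdh2* alone of the pair in 9 and 31. Of the 7 somatic cells of plate 5 with *Cdh1*, 4 also had *Gja4* and 5 also had *Cdh3*. On plate 2 all 4 somatic cells with *Gja4* and all 6 with *Cdh3* also had *Gja1*.

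How much of an oocyte gene was read in the somatic cells of its plate was set beside the same value for the oocyte markers. The study removed whole cells by these markers and not by the 6 genes. The filter acts on the marker values directly, and any reads of the 6 genes in removed cells went with them. How far it moved either value was not tested. The somatic level of *Gja4* was 0.802%, 0.663%, 0.544%, 2.10% and 5.50% of its oocyte level on plates 1, 2, 4, 5 and 6, and the median marker stood at 3.34%, 0.294%, 0.590%, 3.23% and 3.27%. *Gja4* was inside the range of the markers on all 5 plates, and so was *Cdh1* on plate 5 with 2.28% (markers 0.327% to 26.6%). *Cdh3* was above the highest marker on plates 1 and 2, with 24.9% and 51.8% against marker maxima of 9.14% and 0.877%, and inside the range on plates 4, 5 and 6 with 0.0425%, 3.76% and 5.24%. In the other direction, the oocyte level of the somatic genes was 1.23% and 0.00991% of the somatic level for *Gja1* (plates 1 and 2), 1.57% and 7.01% for *Cdh2* (plates 4 and 5) and 9.08% and 18.01% for *Gjc1*. The median granulosa marker stood at 0.622% and 0.259% on plates 1 and 2 and at 0.0570% and 0.894% on plates 4 and 5. The range of these markers was wide, from 0% up to 81.4%, 22.4%, 28.95% and 123.6% on plates 1, 2, 4 and 5. *Gja1*, *Cdh2* and *Gjc1* were inside it on each plate that lists them, which says little, since almost any value would be. Against the marker median, *Gja1* was above it on plate 1 and below it on plate 2. *Cdh2* and *Gjc1* were above it on plates 4 and 5. Whether reads passed between cells of a plate or a follicle was not tested.

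**Figure D3:**
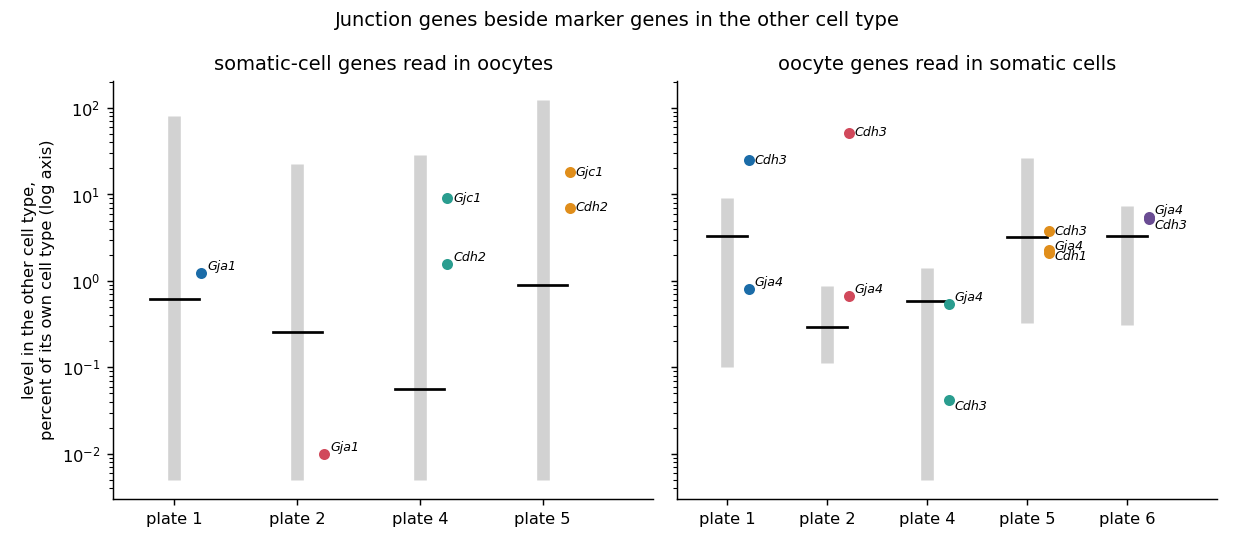
Level of each gene in the other cell type as a percent of its level in its own type, per plate, on a log axis, with a grey bar for the range and a black line for the median of the marker genes of that type. *Gja4* points (0.544% to 5.50%) lie within the bars, and *Cdh3* points of plates 1 and 2 (24.9% and 51.8%) lie above them.

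Stages were compared only between cells of 1 type on 1 plate with at least 5 cells of both stages, which left 10 comparisons. Accutase ran for 5 min at the primordial and transitioning stages and for 10 min at the primary and secondary ones. Between these pairs of stages, follicle stage and Accutase time cannot be told apart. In the somatic cells of plate 1, *Gja1* stood at 380 CPM at the primordial stage, 648 at the transitioning, 1746 at the primary and 3512 at the secondary stage. The lowest, median and highest of 19 primordial cells had 0, 25.2 and 1846 CPM, and those of 8 transitioning cells 0, 399 and 2562 CPM. The 5 primary cells had 779, 1361, 2008, 2346 and 2868 CPM, and the 5 secondary cells 555, 2471, 3082, 3461 and 6533 CPM. All primary and secondary cells had reads, against 14 of 19 primordial and 6 of 8 transitioning cells, and the values of all neighbouring stages overlapped. The log2 ratio was 0.77 for transitioning over primordial, 2.20 (2.07 to 2.33) for primary over primordial, 1.43 (1.31 to 1.55) for primary over transitioning, 3.21 (3.08 to 3.33) for secondary over primordial, 2.44 (2.32 to 2.55) for secondary over transitioning and 1.01 (0.94 to 1.08) for secondary over primary.

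Several of these steps rested on single cells. The transitioning cell with 2562 CPM is primary in the metadata, and the primary cell with 779 CPM is secondary there. Without both, the log2 ratio was 0.39 for transitioning over primordial, 2.47 for primary over primordial and 0.74 for secondary over primary, the last no longer past 1. It was 2.08 for primary over transitioning and 2.82 for secondary over transitioning. The ratio of secondary over primary cells was also under 1 without 1 other primary cell (0.87) or 1 secondary cell (0.67), and transitioning over primordial was past 1 without 1 transitioning cell (1.06) or 1 primordial cell (1.17). These ratios stand against a broad background. In transitioning over primordial cells 28.2% of all genes were higher and 47.6% lower (75.8% together), with *Cdh3* the only listed gene past the limit, on 2 cells. In primary over primordial cells these shares were 32% and 41.6% (73.5% together) and in primary over transitioning cells 42.2% and 33.2% (75.4%), with *Gja1* and *Gja4* higher and *Cdh3* lower in both. In secondary over primordial cells they were 33.2% and 42% (75.3%), and in secondary over transitioning cells 43.3% and 33.8% (77.1%), with *Gja1* higher and *Cdh3* lower. In secondary over primary cells they were 31.4% and 30.2% (61.6%), with *Gja1* higher and *Gja4* lower. A count over 3 genes adds nothing to that background. Markers of other cells differed between these stages too. The summed share of stroma genes was 0.326% in the primordial cells of plate 1 (6 of 19 with a read), and 0.000280%, 0.0162% and 0.000279% at the 3 later stages. That of granulosa markers was 0.545%, 0.690%, 1.29% and 1.93% in the same order, and the part of either in the *Gja1* levels was not tested. The 32 primary somatic cells of plate 2 had 5765 CPM of *Gja1*, on other libraries.

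*Cdh2* in the somatic cells of plate 5 was lower at the primordial stage than later. Over the 21 primordial, 19 primary and 26 secondary cells its levels were 113.1, 765 and 686 CPM. The lowest, median and highest cell had 0, 16.8 and 428 CPM at the primordial, 0, 459 and 2913 CPM at the primary, and 0, 500.5 and 3366 CPM at the secondary stage, with reads in 12, 12 and 23 cells. The log2 ratio was 2.76 (2.49 to 3.03) for primary over primordial, 2.60 (2.35 to 2.87) for secondary over primordial and -0.16 (-0.31 to 0.00) for secondary over primary. The groups overlapped, as cells with no read were present at all 3 stages. The summed share of stroma genes was 0.443%, 0.249% and 0.160% in primordial, primary and secondary cells (reads in 17 of 21, 4 of 19 and 14 of 26 cells), and that of granulosa markers 0.503%, 2.52% and 2.14%. Their part in the *Cdh2* levels was not tested. In the somatic cells of plate 4, all transitioning, *Cdh2* stood at 581 CPM.

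Of the 5 genes listed on plate 5, 1 was higher (*Cdh2*) and 3 were lower (*Gja4*, *Cdh1* and *Cdh3*) in primary over primordial somatic cells, where 34.1% of all genes were higher and 27.9% lower (62% together). In secondary over primordial cells 1 was higher (*Cdh2*) and 2 were lower (35.6% and 22.8%, together 58.4%). In secondary over primary cells 4 were higher, all but *Cdh2* (29.7% and 21.5%, together 51.2%), and *Cdh1*, with no primary count, could not be called without either of 2 secondary cells (at least 0.12 and 0.81). Without the somatic cells with stroma or surface epithelium genes, 2 genes were past the limit in that comparison. Levels of *Gja4* over the primordial, primary and secondary somatic cells were 115.4, 0 and 26.2 CPM, with reads in 12 of 21, 0 of 19 (which allows a share of up to 15.8%) and 4 of 26 cells. With the primary cells set at the floor of 3 counts, they were at least 30.0-fold lower in *Gja4* than primordial ones (log2 ratio -4.91 or lower). With cells thinned to 12000 counts the log2 ratio was only bounded at -3.59 or lower. *Cdh1* stood at 31.2, 0 and 10.6 CPM (5 of 21, 0 of 19 and 2 of 26 cells), at the same floor at least 8.10-fold lower in primary than in primordial cells. That is a log2 ratio of -3.02 or lower, which became -2.36 or lower with thinned cells and -2.41 or lower without 1 primordial cell.

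On plate 5 the somatic levels of *Gja4* and *Cdh1* had the same order over the stages as the oocyte markers. The summed marker shares were 0.0510%, 0.00167% and 0.0102% in primordial, primary and secondary cells. *Cdh3*, with 149.7, 29.5 and 140.7 CPM in these cells, was nearly as high in secondary as in primordial ones. Of the 21 primordial somatic cells all had reads of oocyte markers (0.00305% to 0.149% of counts, median 0.0629%), against 5 of 19 primary cells (0% to 0.0125%) and 11 of 26 secondary cells (0% to 0.185%). Endothelial markers were read in 10 of 21 primordial, 0 of 19 primary and 10 of 26 secondary cells. Somatic cells of plate 3 (median oocyte marker share 0.0845%) and the secondary cells of plate 6 (0.252%) had *Gja4* in 10 of 22 and 7 of 11 cells, at 203.3 and 203.7 CPM. The primordial somatic cells of plate 1 went the other way, with oocyte marker reads in 15 of 19 cells but *Gja4* in 1 of 19, at 0.66 CPM. Their summed oocyte marker share was 0.0528% over the 10 markers listed there, beside 0.0510% over 7 in the primordial cells of plate 5. Plates 3 and 6 list 8 and 7 of these markers, so the shares of different plates are sums over different genes. On plates 2 and 4 the median marker share was 0% and *Gja4* was read in 4 of 32 and 1 of 16 somatic cells. The part of these markers in the somatic *Gja4* reads was not tested. Without the 25% of somatic cells with most oocyte marker reads on their plate, and the 25% of oocytes with most granulosa marker reads, the log2 ratio of *Gja4* on plate 5 was 7.09.

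*Cdh3* in the somatic cells of plate 5 stood at 149.7, 29.5 and 140.7 CPM in primordial, primary and secondary cells, carried by 7 of 21, 2 of 19 and 6 of 26 cells. The log2 ratio of primary over primordial was -2.34 (-3.03 to -1.72) and that of secondary over primary 2.25 (1.62 to 2.95), and without the highest secondary cell, at 2092 CPM, the second was 1.30. Without 1 primary cell the ratios were -5.63 and 5.54. *Gjc1* stood at 27.3, 17.96 and 47.4 CPM, and its ratio of secondary over primary, 1.40 (0.54 to 2.36), was under 1 without either of 2 secondary cells (0.99 and 0.91). On plate 1 only 2 somatic cells had *Cdh3*, 1 primordial (256 CPM) and 1 transitioning (219.2 CPM), and only 2 had *Gja4*, so the stage ratios of these genes there rested on 1 cell each. The transitioning over primordial ratio of *Cdh3* on plate 1 was 1.91, but without that 1 transitioning cell its group had no count, and the ratio was -2.22 or lower.

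**Figure D4:**
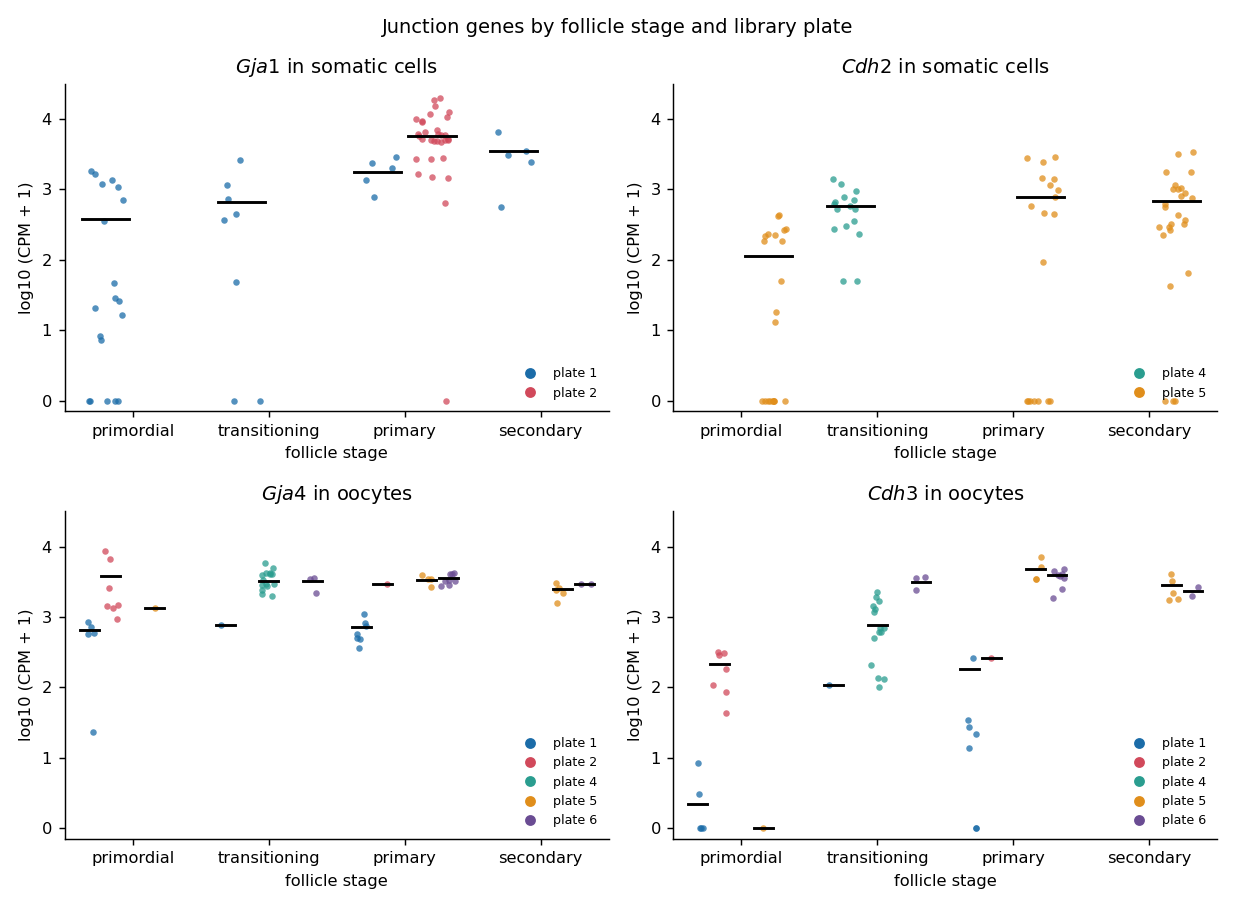
CPM of *Gja1* and *Cdh2* in somatic cells and of *Gja4* and *Cdh3* in oocytes by follicle stage, 1 point per cell, with plates side by side and the bar at the CPM of the summed counts. On plate 1 the *Gja1* bars stand at 380, 648, 1746 and 3512 CPM, and on plate 5 the *Cdh2* bars stand at 113.1, 765 and 686 CPM.

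In oocytes *Cdh3* was low at the primordial stage on every plate that held one and high in growing oocytes of plates 4 to 6. The primordial oocytes had 0, 0, 0, 2.04 and 7.37 CPM on plate 1, 42.9 to 321 CPM on plate 2 and 0 CPM in the single cell of plate 5. Transitioning oocytes had 107.8 CPM on plate 1 (1 cell), 100 to 2274 CPM on plate 4 and 2404 to 3715 CPM on plate 6. Primary oocytes had 0 to 258 CPM on plate 1, 263 CPM on plate 2 (1 cell), 3418 to 7177 CPM on plate 5 and 1849 to 4756 CPM on plate 6, and secondary oocytes 1763 to 4028 CPM on plate 5 and 2001 to 2662 CPM on plate 6. Only 1 primordial oocyte shared plates 4 to 6 with later ones. Primary oocytes alone differed by plate, with at most 258 CPM on plate 1 and at least 3418 CPM on plate 5, so stage and plate cannot be told apart in the oocyte series of *Cdh3*.

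Only 1 comparison of oocyte stages had 5 cells on both sides, that of 7 primary over 5 primordial oocytes of plate 1, in which 15.2% of all genes were higher and 34.1% lower (49.3% together). Of the 3 listed genes, *Cdh3* was higher, *Gja1* lower and *Gja4* within the limits. The ratio of *Cdh3* was 7.26 (5.39 to 10.32), against 2 counts in primordial oocytes, and 95.8% of the primary counts lay in 1 cell. Without that cell it was 4.31. With cells thinned to 12000 counts no primordial oocyte had a read, and the ratio was at least 0.68. *Gja4* stood at 719 CPM in primary and 651 CPM in primordial oocytes, a ratio of 0.14 (0.01 to 0.27). Without the 3 primordial oocytes with a conflicting time code 2 remained, with 8 counts of *Gja4* between them (55.5 CPM), and the ratio was 3.69 (2.71 to 4.91), so the call for *Gja4* rests on those 3 cells. The ratio of *Cdh3* was then 4.72 (2.23 to 10.03). *Gja1* had 0 counts in primary oocytes against 68 in primordial ones, all in the 3 oocytes with a conflicting time code, so it gives no stage difference without them.

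With at least 2 cells on both sides, an alternative added after the data were seen, growing oocytes could be compared on plates 5 and 6. In 5 secondary over 4 primary oocytes of plate 5 the log2 ratio was -0.41 (-0.55 to -0.26) for *Gja4*, -0.83 (-1.12 to -0.54) for *Cdh1* and -0.79 (-0.92 to -0.66) for *Cdh3*. The 5 secondary oocytes had 1593 to 2994 CPM of *Gja4*, against 2669 to 3918 CPM in the primary ones, and 433 to 818 CPM of *Cdh1*, against 818 to 1204 CPM. None of these was past 1, and of the 5 listed genes 1 was (*Cdh2*, 12 against 4 counts, 1.70, -0.02 to 3.79), where 9.91% of all genes were higher and 19.5% lower (29.4% together). On plate 6 *Gja4* stood at 3245, 3597 and 2919 CPM and *Cdh3* at 3185, 3880 and 2307 CPM in transitioning, primary and secondary oocytes, and all 6 ratios were within the limits, with the primary over transitioning background at 8.88% higher and 12% lower (20.9%), the secondary over transitioning one at 10.9% and 34.4% (45.3%), and the secondary over primary one at 7.21% and 24% (31.3%).

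Other junction genes were read from lists of the same families, and the counts here are of genes that reached 5 CPM in a cell type. Of 20 connexins in the table, 4, 4, 4, 4 and 3 passed this on plates 1, 2, 4, 5 and 6, and 2, 3, 3, 1 and 2 of them were higher and 2, 1, 1, 2 and 1 lower in oocytes. *Gjb2*, a connexin known from the inner ear and skin, had no somatic count on plates 1, 2, 4 and 6, against 9.87, 22.3, 42.97 and 128.9 CPM in oocytes, log2 ratios of at least 4.14, 4.70, 5.46 and 4.29. On plate 5 it had 27.9 CPM in oocytes and 24.1 CPM in somatic cells (0.21). On plates 1, 2, 4 and 6 its ratio is thus a bound against a somatic level of 0. On plate 5, where somatic cells had counts, *Gjb2* was within the limits.

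Of 22 cadherin genes, not all of them classical, 6, 6, 5, 10 and 2 passed the minimum on these plates. Of them 3, 1, 2, 6 and 2 were higher and 3, 4, 3, 4 and 0 lower in oocytes, with list medians of -0.29, -4.39, -1.41, 2.93 and 2.93 beside the medians of all genes given above. *Cdh24*, a cadherin with little known function, stood at 233.3 CPM in oocytes and 38.7 CPM in somatic cells of plate 5 (2.59). Chosen after its values were seen, *Cdh20* had 11, 52, 61, 6 and 18 counts in oocytes of the 5 plates and no somatic count on any of them. Also chosen in that way, *Cdh11* of mesenchymal cells had 0 CPM in oocytes and 32.4 and 452 CPM in somatic cells of plates 1 and 2, and *Cdh5* of endothelium had 0 CPM in oocytes and 42.98, 47.3 and 95.9 CPM in somatic cells of plates 1, 2 and 5. On plate 4 *Cdh5* had no count in either cell type. Without the 27 somatic cells with stroma or surface epithelium genes the log2 ratio of *Gja1* was -6.43 and -13.42 and that of *Cdh2* on plate 5 -4.01.

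Catenins and their partners, which tie cadherins to actin, were read in both cell types. Of 20 such genes 10, 6, 5, 6 and 3 passed the minimum, of which 3, 2, 1, 0 and 1 were higher and 4, 0, 2, 1 and 0 lower in oocytes. The log2 ratio of *Ctnna1*, the alpha-catenin of most tissues, was -1.29, -0.92, -0.76, -0.18 and -0.79 on plates 1, 2, 4, 5 and 6, and that of *Vcl*, which encodes vinculin, -0.24, -0.64, -0.81, 0.38 and 0.58. *Ctnnb1* (beta-catenin) was listed on plate 4, with 233.3 CPM in oocytes and 711 CPM in somatic cells (-1.61). *Pard3*, a polarity protein gene, stood at 548 CPM in oocytes and 135.2 CPM in somatic cells of plate 2 (2.02), and *Actn4* (alpha-actinin) at 487 and 442 CPM on plate 1 (0.14).

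Among genes that bind or route connexins, *Src*, a kinase that phosphorylates the *Gja1* protein, was lower in oocytes at 1.83 against 296 CPM on plate 4 (-7.34), 1.47 against 108.4 CPM on plate 5 (-6.21) and 4.48 against 153.9 CPM on plate 6 (-5.10), with 0 against 81.6 CPM on plate 2. On plate 1 its ratio was -0.50. *Tjp1* (ZO-1), a scaffold of tight and gap junctions, stood at 299 CPM in oocytes and 483 CPM in somatic cells of plate 5 (-0.69). *Cgn*, which encodes cingulin of tight junctions, stood at 40.7 CPM in oocytes and 199.06 CPM in somatic cells of plate 1 (-2.29), and its relative *Cgnl1* at 167.2 and 41.1 CPM on plate 5 (2.02). Of the 5, 2, 4, 5 and 2 genes of this list past the minimum 1, 0, 2, 1 and 0 were higher and 1, 2, 2, 2 and 1 lower in oocytes.

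Of 10 desmosome genes, 4, 2, 2, 1 and 4 passed the minimum, and 1, 0, 1, 0 and 0 were higher and 2, 2, 1, 1 and 3 lower in oocytes. *Pkp2*, a plakophilin, stood at 95.8 CPM in oocytes and 53.2 CPM in somatic cells of plate 1 (0.85). *Dsg2*, a desmosomal cadherin chosen after its values were seen, had 0, 0.29, 0, 4.40 and 1.12 CPM in oocytes, against 46.3, 50.4, 198.7, 113.3 and 54.95 CPM in somatic cells of plates 1, 2, 4, 5 and 6. Of 7 genes for the cutting of cadherins, 4 passed on plate 1 (1 higher and 1 lower) and 1 on plate 6. There *Pcsk5*, a proprotein convertase, stood at 7.85 CPM in oocytes and 306 CPM in somatic cells (-5.28), and on plate 1 the log2 ratio was -0.73 for *Ncstn*, -1.64 for *Adam10* and 0.42 for *Furin*. Of 3 pannexins, 1 passed on each of plates 4, 5 and 6 and was higher in oocytes on plate 4.

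The genes most like each member were sought over the groups of type, stage and plate, by Pearson's r of log2(CPM + 1) among genes above 50 CPM in a group. These are descriptions over few groups, most of which differ in cell type, and the groups of a plate share its depth and list of genes. *Gja1* was closest to *Tmem184a* (0.993) and *Inha* (0.991) among 2344 genes over 8 groups. *Inha* encodes the inhibin alpha subunit made by granulosa cells. *Cdh2* was closest to *Amh* (0.994), the anti-Mullerian hormone of growing follicles, and then to 2 transcripts named after clones (0.993 and 0.991), among 2396 genes over 6 groups. *Gja4* was closest to *Cfap58* (0.929), *Khdc1a* (0.929) and *Khdc1c* (0.927) among 2421 genes over 17 groups, and *Cdh3* to *Zswim4* (0.856), *Med26* (0.841) and *Nhlrc2* (0.808) over the same groups. *Cdh1* was closest to *Upf1* (0.999), *Rhof* (0.999) and *Pdzk1* (0.998) among 3837 genes, over only 4 groups. *Gjc1* did not reach 50 CPM and was not ranked.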

How the data were processed

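Libraries were made by SMART-Seq2 from single cells of staged follicles. Per the study's methods and the submitters' processing notes, the authors aligned reads to GRCm38 (mm10) and used Seurat version 4. They removed cells with under 500 genes and cells that scored high for the other cell type. The deposited table holds estimated counts per gene and cell, not normalized, with 17.2% of values above 0 not whole and 32.9% of entries missing, which were read as genes that a plate does not list. Of 25149 entries, 27 carry dates in place of gene names (0.0743% of counts) and were left out. The deposited cell metadata give read counts and the fraction of rRNA reads per cell, and 0 columns could not be mapped to a sample.

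For each plate, counts of cells of 1 type, or of 1 type and stage, were added up. CPM used the counts of all genes listed on that plate, between 15672 and 18533. Log2 ratios carry 95% intervals from a binomial split of the summed counts, and a group at 0 was set to a floor of 3 counts over the group. Groups had at least 5 cells, a gene was tested at 5 CPM or more in a group, and a call was a log2 ratio of 1 or more in size. No p-value was computed, since the labels name no animal and cells are not replicates. With totals of 5150 to 801258 counts per cell, a low level in 1 cell often rests on a few counts. A summed level alone does not tell fewer cells with reads from less RNA per cell, so values of single cells and numbers of cells with a read are given beside many levels. The library kit does not mark strand, so reads of antisense partners cannot be told apart from those of the genes. Named were the 6 genes, the 3 genes most like each, and from each junction list at most 5 with at least 50 CPM and reads in at least 50% of the cells of a type on a plate. Some genes that this rule names are not reported here. Genes, lists and limits were chosen with earlier results of these data known. Exon lengths came from the GENCODE annotation of GRCm38, and promoter sequence from RefSeq, which gave 2 of the 6 genes. Alternatives were other totals, TMM factors (edgeR 4.0.16) and median-of-ratios factors (DESeq2 1.42.0), means of single-cell CPM, cells thinned to 12000 counts, matched stages, CPM minimums, and leaving out single cells, plates, or cells with conflicting labels or markers of other cells. The steps were tested on simulated data. Python 3.11.15, numpy 2.4.6, pandas 2.3.3, scipy 1.17.1, matplotlib 3.10.9 and R 4.3.3 were used.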

Additional observations from a re-analysis of the deposited data

Results flagged for a closer look

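Dixon's criterion was applied to each gene in each group of 4 to 10 cells of 1 type, stage and plate. In 8 of the 25 combinations with any read 1 cell stood apart from the others. The criterion's limits are made for normal values, and many of these groups consist mostly of cells with no read. Where only 1 cell has reads it is always flagged, so the number of flags is not set against chance. In the 8 transitioning somatic cells of plate 1, 1 cell had 2562 CPM of *Gja1* and the others between 0 and 1147 CPM, and this is the cell that the metadata call primary. Another of these cells had 219.2 CPM of *Cdh3* and the others none. In the 5 primary somatic cells of plate 1, 1 had 76.3 CPM of *Gja4* and the others none.

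In the 5 primordial oocytes of plate 1, 1 had 99.3 CPM of *Gja1* and the others 0 to 18.3 CPM, and it is 1 of the 3 with a conflicting time code. Another had 7.37 CPM of *Cdh3* and the others 0 to 2.04 CPM. In the 7 primary oocytes of that plate, 1 had 258 CPM of *Cdh3* and the others 0 to 33.6 CPM. In the 4 primary oocytes of plate 5, 1 had 16.5 CPM of *Gjc1* and the others none. In the 5 secondary oocytes of plate 5, 1 had 33.3 CPM of *Gjc1* and the others none, and both *Gjc1* values rest on 1 or 2 counts.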

How the results depend on the processing

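No paired analysis was possible because replicate numbers in the labels only count cells and no test was run. Under the alternatives 308 single ratios were counted as unchanged. A smaller but sizeable number were counted as moved, and 1 changed sign. For a ratio with a 95% counting interval, unchanged means that it stayed within that interval. Ratios that are only bounds have no such interval, so this meaning does not cover them. *Cdh3* in transitioning over primordial somatic cells of plate 1 was -2.22 or lower without 1 cell and 5.11 or higher without another (1.91 with all), both bounds against a group left at 0 counts. The median over plates was -1.42 or lower for *Gjc1* with thinned cells, where no oocyte of plate 4 had a read (-2.97 otherwise). *Cdh1*, on 1 plate, gave 4.74 with means of single-cell CPM, 4.77 with thinned cells, 6.95 at matched stages, 7.24 without cells high in markers of the other type and 6.24 without somatic cells with stroma or surface epithelium genes (5.45 otherwise). With single cells left out, the members past a log2 ratio of 1 on plate 1 numbered 1 to 2 in transitioning over primordial, secondary over primordial, secondary over transitioning and secondary over primary somatic cells. The last was also 1 with TMM factors and 1 without cells with conflicting labels, and on plate 5 secondary over primary gave 2 without somatic cells with stroma or surface epithelium genes (4 otherwise).

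With a minimum of 50 CPM, the genes past the limit in oocytes over somatic cells numbered 2517, 2085, 2084, 2285 and 2243 on plates 1, 2, 4, 5 and 6 (5245, 4395, 4002, 4459 and 3764 otherwise). In primary over primordial oocytes of plate 1 they numbered 1186 (3042). In somatic cells of plate 1 they numbered 2831 (5047) for transitioning over primordial, 2700 (4995) for primary over primordial, 2666 (4562) for primary over transitioning, 2852 (5113) for secondary over primordial, 2766 (4667) for secondary over transitioning and 1984 (3740) for secondary over primary. On plate 5 they numbered 1775 (3810) for primary over primordial, 1485 (3782) for secondary over primordial and 1254 (3194) for secondary over primary. The share of higher genes among those past the limit was 37.9% on plate 2 and 44.2% on plate 6 with TMM factors, against 27.6% and 29.8%, and 44.3% on plate 4 with median-of-ratios factors, against 33.2%. In primary over primordial cells it was 51.7% in oocytes of plate 1 and 40.3% in somatic cells of plate 5 with TMM factors, against 30.8% and 55.04%. In secondary over primordial somatic cells of plate 5 it was 49.9%, against 61%. Few counts per gene limit *Gjc1*, *Cdh1* in somatic cells and *Gja1* in oocytes.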

Other observations

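Beside the cell types, the share of cells with a read was compared after every cell was thinned to 12000 counts, with 6 shallower cells left out. *Gja4* was then read in 98.2% of oocytes and 18.03% of somatic cells, *Cdh1* in 100% and 7.69%, and *Cdh3* in 83.6% and 18.03%. *Gja1* was read in 5.56% of oocytes and 77.9% of somatic cells, against 23.8% and 88.4% before thinning, and *Cdh2* in 16.7% and 70.4%, against 40.0% and 76.8%. The order of the cell types was the same for these 5 genes with and without thinning.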
